A study of Rattus norvegicus with 11 samples.

Results

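The 6 genes described here are the mitochondrially encoded subunits of cytochrome c oxidase (Mt-co1, Mt-co2 and Mt-co3), of ATP synthase (Mt-atp6 and Mt-atp8) and of the cytochrome bc1 complex (Mt-cyb). They were chosen by their Ensembl gene IDs, and all 6 were found among the 32883 gene IDs of the count table. The IDs are ENSRNOG00000034234 for Mt-co1, ENSRNOG00000030371 for Mt-co2, ENSRNOG00000030700 for Mt-co3, ENSRNOG00000031979 for Mt-atp6, ENSRNOG00000033299 for Mt-atp8 and ENSRNOG00000031766 for Mt-cyb. The table pairs IDs with no names, so the names rest on the IDs and on a check of gene model length. Dividing each count by its FPKM (the count scaled to gene model length and library total) gave 1545 bases for Mt-co1, 684 for Mt-co2, 784 for Mt-co3, 681 for Mt-atp6, 204 for Mt-atp8 and 1143 for Mt-cyb. All 6 passed the filter on low counts.

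The 11 RNA libraries were made from heart tissue of rats of the Sprague Dawley strain. Libraries 115 and 95 are the 2 labelled as control, and the other 9 had isoproterenol, which stimulates beta-adrenergic receptors and is used to model heart failure, at 5 mg/kg per day for 10 days. Of these 9, libraries 79, 98 and 119 had isoproterenol alone. Libraries 78, 133 and 143 also had canagliflozin, an inhibitor of glucose reabsorption in the kidney, at 3 mg/kg per day for 4 weeks, and libraries 103, 113 and 57 had exercise for 60 min per day for 4 weeks. The series title speaks of canagliflozin combined with aerobic exercise, while libraries 103, 113 and 57 are labelled with exercise and isoproterenol only, so whether those rats received the drug cannot be told. Age and sex are not in the labels, and only the library numbers separate the animals, so the spread behind each p-value is that between libraries and may be technical. Markers of the labelled tissue and of other cell types were not analysed here, because the IDs of the table could not be paired with symbols.

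Mitochondrial DNA is transcribed as long precursors that are cut into separate mRNAs, and its proteins are the hydrophobic cores of the respiratory complexes. Electrons pass from the cytochrome bc1 complex to cytochrome c oxidase, which reduces oxygen, and the proton gradient they build drives ATP synthase. The heart is densely packed with mitochondria, so these mRNAs are usually among its most abundant transcripts.

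Library 95 stood apart from the other 10. It detected 14692 genes, where the others detected 16916 to 17703. Its total count, 14742164, was the lowest, and the highest was 25034831. Control library 115, with a total of 15085736, detected 17024 genes. The TMM factor, which rescales a library so that most genes keep the same level, was 0.568 in library 95 and 0.910 to 1.23 in the others. Fold changes against control are therefore given with and without library 95.

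The 6 genes together took between 17.4% and 33.6% of all counts in a library. The share was 21.4% in control library 115 and 33.6% in control library 95. It was 26.1%, 17.9% and 24.3% in isoproterenol libraries 79, 98 and 119. It was 26.6%, 20.8% and 21.4% in canagliflozin libraries 78, 133 and 143, and 20.3%, 17.4% and 27.1% in exercise libraries 103, 113 and 57. Library 95 was the highest and the 4 groups overlapped. Exact binomial intervals at 95% were at most 0.0482 percentage points wide and cover counting error only, so the spread between libraries is far above counting error. In tissue RNA, fewer cells of a type and less RNA per cell cannot be told apart.

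**Figure D1:**
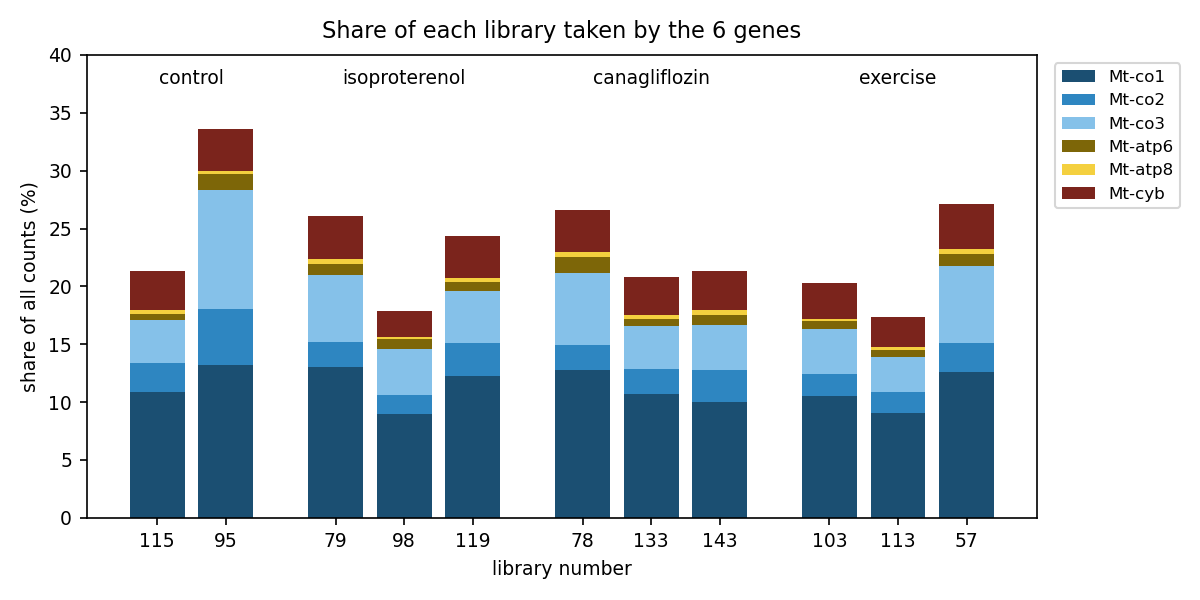
Stacked bars give the percent of all counts taken by each of the 6 genes (vertical axis, from 0) in each of the 11 libraries (horizontal axis, library number), set out by group. The total ran from 17.4% in library 113 to 33.6% in library 95, and the pale blue Mt-co3 segment is widest in library 95.

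The mean summed share was 27.5% ± 8.65 (SD, n = 2) in the control group and 22.8% ± 4.31 (SD, n = 3) with isoproterenol alone. It was 22.9% ± 3.19 (SD, n = 3) with canagliflozin and 21.6% ± 5.01 (SD, n = 3) with exercise. These means differed by less than the SD of the control group. Control library 115 on its own, at 21.4%, lay below all 4 of these means.

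Counts were also set against the other mitochondrially encoded mRNAs, the 7 subunit genes of complex I (NADH dehydrogenase). The 6 genes had 2.76 to 3.88 times the counts of the complex I genes, and the ratio was 3.44 in library 115 and 3.49 in library 95. The 2 control libraries, far apart in summed share, lay close together in this ratio. Their complex I counts were made up differently. The complex I gene Mt-nd3 took 3.23% of all counts in library 95 and 0.511% in library 115. All 7 complex I genes took 9.63% and 6.21%. The closeness of the 2 libraries thus depends on including Mt-nd3, and the ratio without it was not computed. Group means of the ratio were 3.46 ± 0.0337 (n = 2) in control, 3.36 ± 0.362 (n = 3) with isoproterenol, 3.24 ± 0.422 (n = 3) with canagliflozin and 3.70 ± 0.156 (n = 3) with exercise, all as mean and SD. The 3 exercise libraries ran from 3.58 to 3.88 and overlapped with isoproterenol library 98, at 3.75. They lay above both control libraries and just above the canagliflozin range of 2.76 to 3.56. This was not tested.

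Levels between genes were compared per length, in FPKM. The order was Mt-co1, then Mt-co3, then Mt-co2 and Mt-cyb, then Mt-atp8 and Mt-atp6. Mt-co1 was highest in 9 of 11 libraries and Mt-co3 in the other 2, which were control library 95 and exercise library 57. Mt-co2 was above Mt-cyb in 9 of 11 libraries, and the ranges of the pair overlapped. Mt-atp6 and Mt-atp8 were the lowest 2 in all 11 libraries. By count, Mt-co1 was the most abundant gene of the whole table, followed by Mt-co3, Mt-cyb and Mt-co2.

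**Figure D2:**
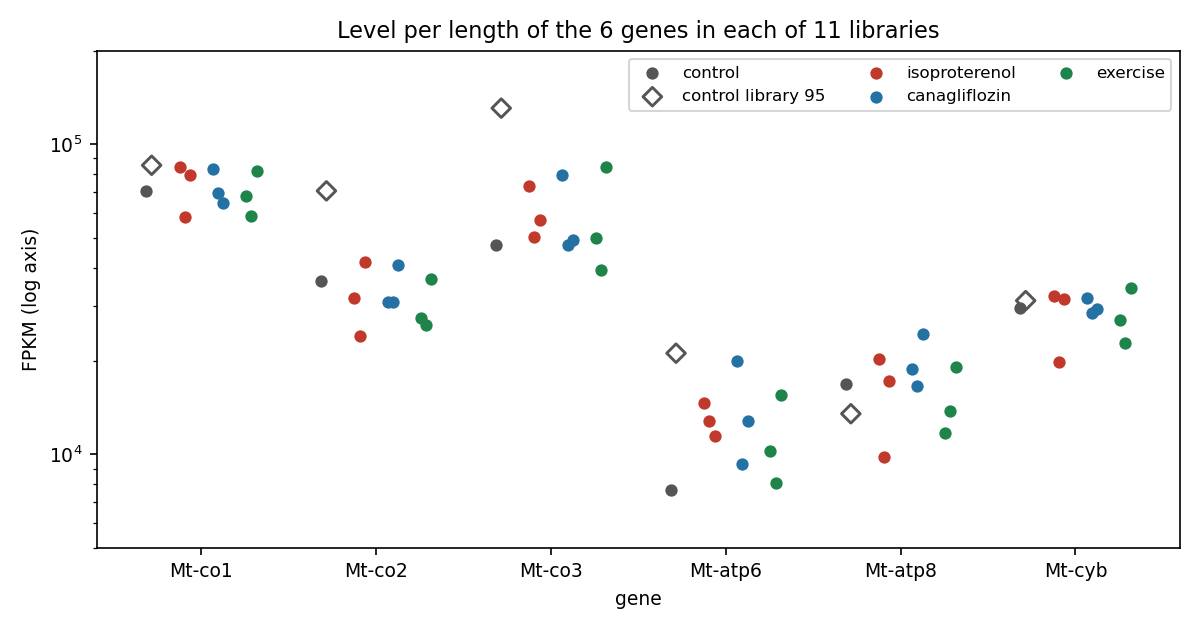
Each point is the FPKM of 1 gene in 1 library (vertical log axis) for the 6 genes (horizontal axis), coloured by group, with control library 95 as an open diamond. Library 95 is far above the others for Mt-co2 and Mt-co3, within their range for Mt-atp8 and Mt-cyb, and control library 115 lies among the treated libraries for every gene but Mt-atp6, where it is the lowest.

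Among the oxidase genes, Mt-co1 encodes the subunit that holds the heme and copper centre where oxygen is reduced. Mt-co1 stood at 70640 and 85496 FPKM in control libraries 115 and 95, at 84355, 58059 and 79271 in isoproterenol libraries 79, 98 and 119, at 82944, 69504 and 64749 in canagliflozin libraries 78, 133 and 143, and at 68046, 58712 and 81697 in exercise libraries 103, 113 and 57. It varied least of the 6, with a highest to lowest ratio of 1.47. The groups overlapped, and library 95 was the highest and library 98 the lowest.

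Mt-co2 encodes the subunit that takes electrons from cytochrome c. Mt-co2 stood at 36191 and 70700 FPKM in control libraries 115 and 95, at 32039, 24142 and 41761 in isoproterenol libraries 79, 98 and 119, at 30914, 30976 and 40660 in canagliflozin libraries 78, 133 and 143, and at 27433, 26144 and 36720 in exercise libraries 103, 113 and 57. Library 95 was 2.24 times the median of the other 10. Library 115 lay within the range of all 3 treated groups.

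Mt-co3 encodes the third core subunit of the oxidase. Mt-co3 stood at 47363 and 130625 FPKM in control libraries 115 and 95, at 73153, 50198 and 57011 in isoproterenol libraries 79, 98 and 119, at 79803, 47298 and 48928 in canagliflozin libraries 78, 133 and 143, and at 49683, 39175 and 84489 in exercise libraries 103, 113 and 57. This was the widest spread of the 6 genes, with a highest to lowest ratio of 3.33. Without library 95 the ratio was 2.16, and those of Mt-atp6 and Mt-atp8 were wider, at 2.61 and 2.50. Apart from library 95, the 3 highest values were in libraries 57, 78 and 79, each from a different treated group.

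Mt-atp6 encodes the membrane subunit through which protons pass in ATP synthase. Mt-atp6 stood at 7665 and 21194 FPKM in control libraries 115 and 95, at 14655, 12790 and 11434 in isoproterenol libraries 79, 98 and 119, at 19978, 9288 and 12819 in canagliflozin libraries 78, 133 and 143, and at 10232, 8091 and 15553 in exercise libraries 103, 113 and 57. The lowest and the highest value of the 11 were both in the control group.

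Mt-atp8 encodes a small membrane subunit of the same enzyme. Mt-atp8 stood at 16867 and 13525 FPKM in control libraries 115 and 95, at 20361, 9809 and 17308 in isoproterenol libraries 79, 98 and 119, at 18861, 16588 and 24502 in canagliflozin libraries 78, 133 and 143, and at 11720, 13853 and 19134 in exercise libraries 103, 113 and 57. Library 95 ranked 9 of 11 here, in contrast to its first rank for the other ATP synthase gene. Mt-atp8 and Mt-atp6 are carried on a shared mRNA with overlapping reading frames. Mt-atp8 was above Mt-atp6 in FPKM in 8 of 11 libraries and below it in the other 3, which were libraries 95, 98 and 78. The ratio of Mt-atp6 to Mt-atp8 ran from 0.454 in library 115 to 1.57 in library 95, so the pair that gave the extremes was again the control pair. How the authors' counting treated reads in the overlap is not given in the sources used here, and Mt-atp8 is the shortest gene of the set, so this ratio is uncertain.

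Mt-cyb encodes cytochrome b, the mitochondrially encoded subunit of the bc1 complex. Mt-cyb stood at 29638 and 31312 FPKM in control libraries 115 and 95, at 32445, 19909 and 31725 in isoproterenol libraries 79, 98 and 119, at 31944, 28509 and 29436 in canagliflozin libraries 78, 133 and 143, and at 27117, 22856 and 34489 in exercise libraries 103, 113 and 57. Library 95 ranked 5 of 11. Leaving out libraries 98 and 113, every value lay between 27117 and 34489 FPKM.

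Library 95 was thus not raised evenly. In FPKM it was 2.76 times library 115 for Mt-co3, 2.77 times for Mt-atp6 and 1.95 times for Mt-co2, but 1.21 times for Mt-co1, 1.06 times for Mt-cyb and 0.802 times for Mt-atp8. It was the highest of the 11 libraries in 4 of the 6 genes as a share of total counts, where this held for 6.68% of all 14979 tested genes. It was the lowest in 0 of the 6 and in 58.7% of tested genes. Its median ratio to the median of the other 10 libraries was 0.476 over tested genes. Among the 7 complex I genes it was highest in 3, and Mt-nd3, at 7.38 times the median of the other 10 libraries, was further out than any of the 6. On CPM (the count scaled to the TMM-adjusted library size), library 95 was highest in 6 of the 6 genes. Over all tested genes it was highest in 24.6% and lowest in 33.3%. The low TMM factor thus raised Mt-atp8 and Mt-cyb in library 95 from rank 9 and rank 5 to the highest of the 11. The lowest library of the 11 was 98 in 4 of the 6 genes.

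The makeup of the 6-gene total does not depend on library size. Mt-co1 made up 39.3% of the total in library 95 and 46.5% to 52.2% in the other 10. Mt-co3 made up 30.5% in library 95 and 17.4% to 24.4% in the others, Mt-cyb 10.7% against 12.7% to 15.9%, and Mt-atp8 0.822% against 1.12% to 2.34%. Library 95 lay outside the range of the others for these 4 genes and for Mt-co2, at 14.4% against 7.95% to 13.0%. For Mt-atp6, at 4.30%, it lay within their range of 2.44% to 5.12%.

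The makeup also differed with the library number, and this division was noticed after the values had been seen, so it has no test. The 5 libraries with numbers below 100 (57, 78, 79, 95 and 98) had Mt-co3 at 22.0% to 30.5% of the 6-gene total, and the 6 with numbers above 100 at 17.4% to 19.2%. Mt-cyb lay the other way, at 10.7% to 14.5% below 100 and 14.9% to 15.9% above. These percents share a total, so a higher Mt-co3 percent lowers those of the other genes. Relative to Mt-co1 in FPKM, Mt-co3 still separated, at 0.865 to 1.53 below 100 and 0.667 to 0.756 above. Mt-cyb relative to Mt-co1 overlapped, at 0.343 to 0.422 and 0.389 to 0.455. Both kinds of number occur in each of the 4 groups, and in each group every library below 100 had more Mt-co3 and less Mt-cyb than every library above 100. Set against the summed counts of the 6 genes, 0.0935% of tested genes were higher without overlap in the libraries below 100, and 10.3% were lower. The ratio of Mt-co3 to Mt-cyb in FPKM was 2.25 to 2.52 in libraries 57, 78, 79 and 98, 4.17 in library 95 and 1.60 to 1.83 in those above 100. The labels do not say what the numbers stand for.

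**Figure D3:**
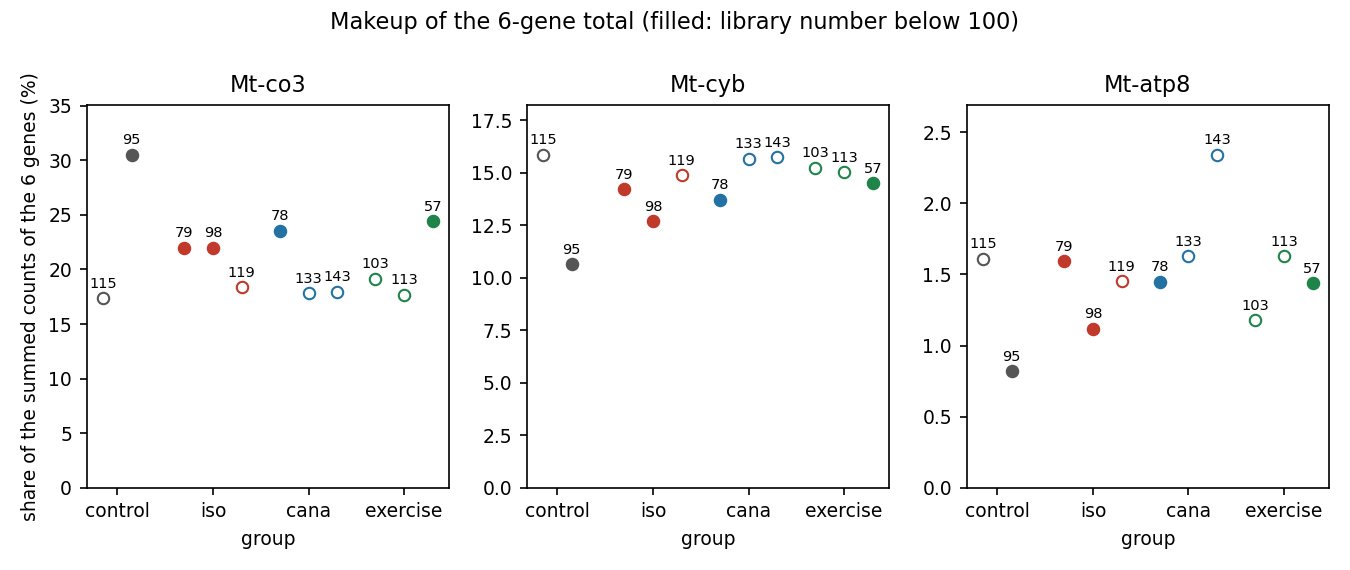
Points give the percent of the summed counts of the 6 genes (vertical axis, from 0) that came from Mt-co3, Mt-cyb and Mt-atp8 in each library, by group (iso, isoproterenol; cana, canagliflozin), with library numbers beside the points and filled points for numbers below 100. Filled Mt-co3 points, at 22.0% to 30.5%, lie above the open ones, at 17.4% to 19.2%, in every group, and filled Mt-cyb points lie below. The percents share a total, so a higher Mt-co3 percent lowers those of the other genes.

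Isoproterenol was compared with control to ask what the heart failure model changed. All 6 genes had lower fitted levels with isoproterenol, and none passed the test. In the edgeR quasi-likelihood fit over all 11 libraries, 0 of 6 genes had an adjusted p under 0.05, with a smallest adjusted p of 0.840, where 0% of all tested genes were called. DESeq2 also called 0 of 6, and 0.865% of the 1619 genes to which it gave an adjusted p. limma-voom called 0 of 6 and 0% of tested genes. At an unadjusted p under 0.05 there was 1 gene, Mt-co2, against 5.21% of all tested genes. The Mt-co2 log2 fold change was -1.31 (SE 0.582, 95% interval -2.60 to -0.01), and it was -1.21 (SE 0.724) for Mt-co3, -0.81 (SE 0.695) for Mt-atp6, -0.59 (SE 0.523) for Mt-cyb, -0.58 (SE 0.547) for Mt-co1 and -0.34 (SE 0.502) for Mt-atp8.

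The size of these negative values depended on library 95. Without it, leaving library 115 as the only control, the isoproterenol log2 fold change was 0.79 for Mt-atp6, 0.39 for Mt-co3, 0.11 for Mt-co1, -0.03 for Mt-cyb, -0.03 for Mt-atp8 and -0.11 for Mt-co2. Without library 115, Mt-co2 alone was called, at a log2 fold change of -1.93 (SE 0.530) and an edgeR adjusted p of 0.0352, in a fit that called 17.1% of all 15731 genes it tested. Without library 95, edgeR called 0 of 6 genes and 0% of 15625 tested genes. These fits with 1 control assume that it varies like the other groups. No gene's CPM separated the 2 groups, where 7.96% of tested genes were higher and 5.47% lower without overlap.

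Canagliflozin and exercise were compared with the same 2 control libraries, so these values share their controls with the isoproterenol values and are given side by side. With canagliflozin, 0 of 6 genes were called by edgeR (0% of tested genes; smallest adjusted p 0.329), by DESeq2 (1.66% of 14357 genes with an adjusted p) or by limma-voom (0%). Mt-co2, with a log2 fold change of -1.38 (SE 0.582), was the 1 gene with an unadjusted edgeR p under 0.05, against 14.4% of tested genes. It was also the 1 gene whose CPM did not overlap, at 22223, 17932 and 22577 CPM with canagliflozin and 23989 and 85077 in control, where 15.4% of tested genes were higher and 10.8% lower without overlap. In FPKM, given above, the same 2 groups overlapped for Mt-co2. Mt-co3 had a log2 fold change of -1.34 (SE 0.724), and the other 4 genes lay between -0.77 and -0.16.

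With exercise, 0 of 6 genes were called by edgeR against control (0% of tested genes; smallest adjusted p 0.852), by DESeq2 (2.27% of 748 genes with an adjusted p) or by limma-voom (0%). Mt-co2 again had the 1 unadjusted edgeR p under 0.05, against 4.85% of tested genes, with a log2 fold change of -1.45 (SE 0.583). The other 5 genes lay between -1.28 (Mt-co3) and -0.47 (Mt-atp8), and no gene separated the groups, where 10.3% of tested genes were higher and 7.15% lower without overlap.

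These values depended on library 95 too. Without it the 6 log2 fold changes spanned -0.20 to 0.82 in the canagliflozin comparison, with 3 genes above 0, and -0.25 to 0.59 in the exercise comparison, with 2 above 0. Without library 115, edgeR called 2 genes for canagliflozin, Mt-co2 (log2 fold change -2.01, adjusted p 0.0234) and Mt-co3 (-2.06, adjusted p 0.0488), and 1 for exercise, Mt-co2 (-2.07, adjusted p 0.0279). These fits called 24.8% and 17.6% of all tested genes, and nothing particular to the 6 genes is read from the calls.

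The values also moved with the composition factor. With library totals and no TMM factor, the median log2 fold change of the 6 genes against control was -0.14 rather than -0.70 for isoproterenol, -0.07 rather than -0.75 for canagliflozin and -0.26 rather than -0.86 for exercise. Mt-atp8 was then above 0 for isoproterenol (0.06) and canagliflozin (0.40). In the main fit with TMM factors, 0 of the 6 genes had a log2 fold change above 0 in these comparisons. Over all tested genes in that fit, 55.0%, 54.2% and 54.4% were above 0. The medians over all tested genes were 0.07, 0.08 and 0.06. Over the 4039 tested genes no longer than Mt-co1 they were -0.23, -0.39 and -0.16, so the median short gene also had a fitted value below control, and the part of length in the values of the 6 genes was not tested. Without library 95 the median over such short genes was 0.04 for isoproterenol, -0.08 for canagliflozin and 0.08 for exercise, and that over the 6 genes 0.04, 0.04 and -0.03.

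**Figure D4:**
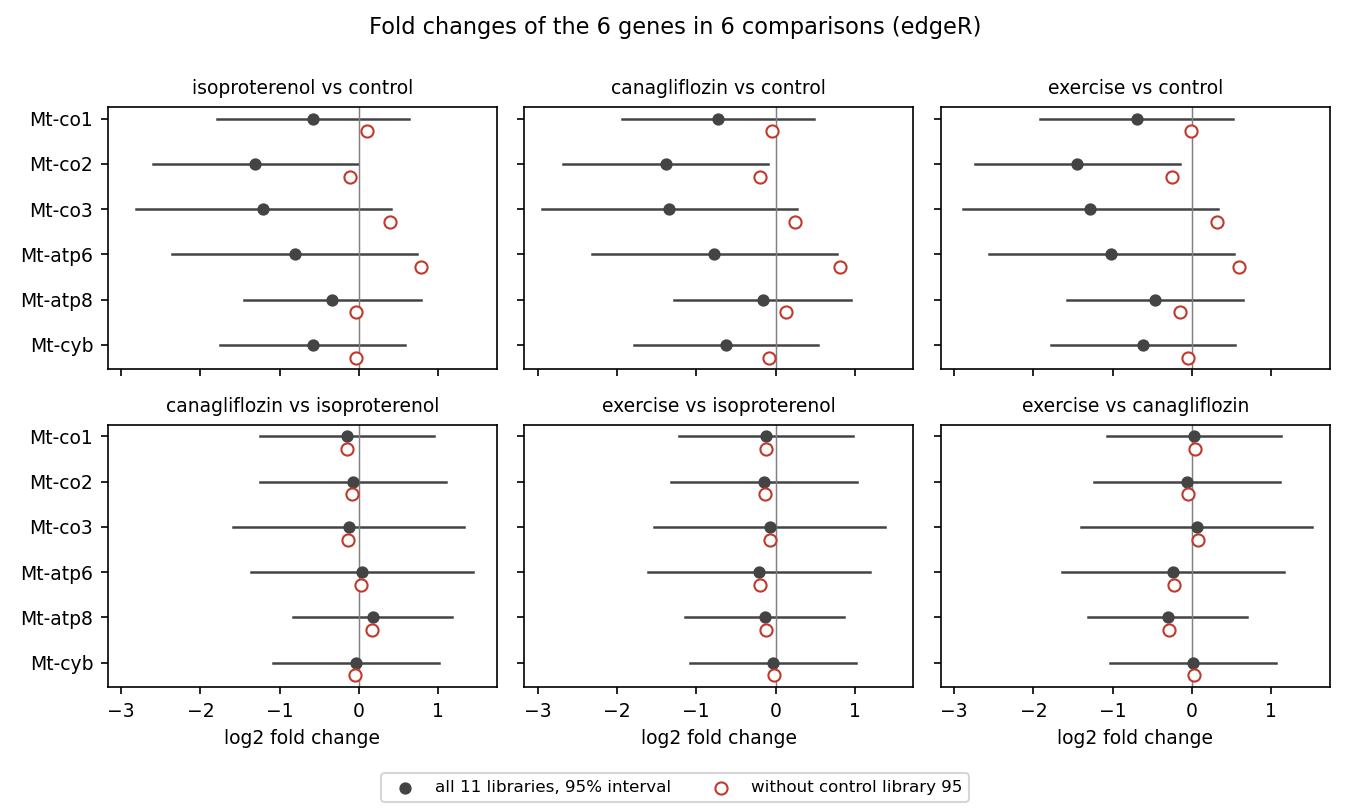
Each panel is 1 comparison, with the log2 fold change on the horizontal axis and the 6 genes on the vertical axis. Filled points and bars are the edgeR fit of all 11 libraries with its 95% interval, and open points, drawn just below, are the fit without control library 95. The upper 3 panels shift toward or past 0 without library 95, and in the lower 3 the open points lie at nearly the same values as the filled ones.

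Canagliflozin was compared with isoproterenol alone to ask what the drug added. The 6 genes were close to even: 0 of 6 were called (edgeR, 0% of tested genes, smallest adjusted p 0.999), with 0 also by DESeq2 (0.0134% of genes) and limma-voom (0%), and 0 had an unadjusted p under 0.05, against 3.30% of tested genes. Log2 fold changes ran from -0.15 (SE 0.495) for Mt-co1 to 0.17 (SE 0.452) for Mt-atp8, with a median of -0.06, beside -0.01 over all tested genes. Of the 6, 2 were above 0, as were 48.9% of tested genes. With the library number below 100 as a covariate, 5 of the 6 were above 0. With limma-voom and sample quality weights, which give variable libraries less weight, 0 of the 6 were above 0, and they ran from -0.61 to -0.28. The 95% intervals of the main fit were wide, from -1.24 to 0.95 for Mt-co1 and from -1.59 to 1.33 for Mt-co3. A 2-fold fall lay inside both, and a 2-fold rise lay inside that of Mt-co3. No gene separated the groups, where 5.90% of tested genes were higher and 3.58% lower without overlap.

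The exercise libraries were set against those with isoproterenol alone in the same way. Again 0 of 6 genes were called (edgeR, 0% of tested genes, smallest adjusted p 1), with 0 by DESeq2 and limma-voom (both 0% of genes) and 0 at an unadjusted p under 0.05, against 1.48% of tested genes. All 6 fitted values were slightly below 0, from -0.20 (SE 0.629) for Mt-atp6 to -0.03 (SE 0.473) for Mt-cyb, and each was under its SE, where 48.2% of tested genes were above 0. The number of values below 0 depended on the fit: with the library number below 100 as a covariate, 3 of the 6 were above 0. With limma-voom and sample quality weights, 0 of the 6 were above 0, and they ran from -0.63 to -0.35. No gene separated the groups, where 4.14% of tested genes were higher and 4.47% lower without overlap.

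Exercise was also compared with canagliflozin. edgeR called 0 of 6 genes (0% of tested genes, smallest adjusted p 0.999), as did DESeq2 and limma-voom (both 0% of genes), and 0 had an unadjusted p under 0.05, against 2.42% of tested genes. The value farthest from 0 was that of Mt-atp8, with a log2 fold change of -0.31 (SE 0.452, 95% interval -1.31 to 0.70). The other 5 lay between -0.24 and 0.06, and 3 of the 6 were above 0, as were 46.3% of tested genes. No gene separated the groups, where 6.55% of tested genes were higher and 7.94% lower without overlap. A joint test for a difference between any of the 4 groups called 0 of 6 genes with edgeR (0% of tested genes; smallest adjusted p 0.909, for Mt-co2), DESeq2 (0.783% of genes) and limma-voom (0%), with 0 at an unadjusted edgeR p under 0.05, against 5.09% of tested genes.

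Of the complex I genes, encoded by the same DNA, edgeR also called 0 of 7 in each of the 6 comparisons. Against control, an unadjusted edgeR p under 0.05 was found for 1 of 7 with isoproterenol, 2 with canagliflozin and 3 with exercise. The shares of tested genes were 5.21%, 14.4% and 4.85%. In CPM, 0, 2 and 2 of the 7 were below control without overlap, where 5.47%, 10.8% and 7.15% of tested genes were. The median log2 fold change of the complex I genes was -0.33 for isoproterenol, -0.46 for canagliflozin and -0.85 for exercise against control. The medians of the 6 genes were -0.70, -0.75 and -0.86. Without library 95 the complex I medians were 0.10, -0.03 and -0.25. Among the isoproterenol-treated groups the complex I median was -0.12 for canagliflozin and -0.31 for exercise against isoproterenol alone, beside -0.06 and -0.13 for the 6 genes. No test of the difference between the lists was made.

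Across the 11 libraries, 14964 other tested genes were ranked by the Spearman correlation of their CPM with the summed CPM of the 6 genes, as a description. The most alike were ENSRNOG00000011794 and ENSRNOG00000054689, each with a rho of 0.936, or 0.915 without library 95. The most opposite were ENSRNOG00000049560, at -0.936, and ENSRNOG00000028941, at -0.927, or -0.915 and -0.903 without library 95. All values share library depth and the TMM factor, and the highest of so many correlations is large by selection. ENSRNOG00000011794 ran from 16.0 to 75.4 CPM and ENSRNOG00000054689 from 287 to 1526 CPM.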

How the data were processed

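RNA from rat cardiac tissue was sequenced in 11 libraries. Per the submitters' processing notes, CASAVA 1.8 and TopHat2 2.0.6 were used. Counter, strand handling, build and annotation were not given in the sources used here. Reads shared with nuclear copies of mitochondrial genes or between overlapping genes are therefore uncertain. Per the file headers, the deposited table holds a raw count and an FPKM value per gene and library, both made by the authors. Columns were matched to libraries by the number in the labels.

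Genes kept by filterByExpr (14979) were fitted with edgeR 4.0.16 (R 4.3.3): TMM factors, robust quasi-likelihood, 4 group means over 11 libraries, Benjamini-Hochberg adjustment over all tested genes, calls at an adjusted p under 0.05. SEs and intervals were derived from the quasi-likelihood F. The code of this step was run on simulated counts with the same spread for every gene. That run does not show how large a change could be found in these libraries. FPKM served for levels between genes. DESeq2 1.42.0, limma-voom (limma 3.58.1, with and without sample quality weights), other normalisations, no filter and fits of only the groups compared were alternatives. Fits without single libraries or without libraries 57, 78, 95 and 98 were further alternatives. The library number below 100 as a covariate was added after the data had been seen. All 6 genes are named. The 2 most alike and 2 most opposite genes were added by rank correlation, with 0.5 added to CPM before the log. The 7 complex I genes and 2 ribosomal RNAs were kept if their length was within 15 bases of the known one. Of the table's IDs, 0 matched the reference table, so lists of nuclear subunits and cell type markers were not used here. The members and lists were chosen with earlier results of these data known. Figures were drawn with matplotlib 3.10.9.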

Additional observations from a re-analysis of the deposited data

How the results depend on the processing

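No paired analysis was possible because the groups share no library number. In the 3 comparisons with control, 0 of the 6 genes were called in 20 of 21 alternatives each, DESeq2 and limma-voom among them, and the exception was the fit without control library 115. Leaving out 1 library at a time gave 0 to 1 called genes for isoproterenol, 0 to 2 for canagliflozin and 0 to 1 for exercise against control. The fit without library 115, which gave the higher counts, called 17.1%, 24.8% and 17.6% of all tested genes in these comparisons. In the comparisons among isoproterenol-treated groups, 0 genes were called in 21 of 21 alternatives each, and in 20 of 20 for the joint test. The smallest adjusted p over alternatives was 0.147 for canagliflozin and 0.552 for exercise against isoproterenol, and 0.276 for exercise against canagliflozin.

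Directions were less stable. Of 180 fold changes against control under settings other than single left-out libraries, 11 changed sign and 20 moved by over 1 SE. Among the isoproterenol-treated groups, 24 of 180 changed sign, all from values within 1 SE of 0, and 5 moved by over 1 SE. With single libraries left out, 40 of 198 changed sign among these groups and 8 of 198 against control. Without libraries 57, 78, 95 and 98, library 115 was the only control. All 6 genes were then above 0 for isoproterenol against control (0.12 to 0.89). All 6 were below 0 for canagliflozin (-0.79 to -0.23) and exercise (-0.74 to -0.54) against isoproterenol. This set takes out the highest summed share of the control (33.6%), canagliflozin (26.6%) and exercise (27.1%) groups. From the isoproterenol group it takes out the lowest (17.9%). Nothing about the treatments is therefore read from these signs, and their cause was not tested. The mean summed share of the control group, 27.5%, became 33.6% without library 115 and 21.4% without library 95. Counting error was far below the spread between libraries, and no fit at lower depth was made.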

Other observations

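The 2 mitochondrial ribosomal RNA genes, Mt-rnr1 and Mt-rnr2, together took 0.234% to 1.09% of counts, and library 95 was the highest. In libraries 115 and 95 their summed share was 0.309% and 1.09%. All 15 mitochondrially encoded genes used here took 44.3% of library 95, against 22.1% to 35.3% of the other libraries. Set against counts that are not mitochondrially encoded, the 6 genes had 60.3 counts per 100 in library 95 and 22.3 to 42.0 per 100 in the others.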
